A study of Mus musculus with 3 samples.

Results

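EC4 is one of the blood endothelial labels that the authors gave to single cells of the mouse iridocorneal angle and limbus, the ring of tissue at the edge of the cornea through which aqueous humor leaves the eye. Its members were taken as the kept cells labelled EC_4 in the deposited tables, and their barcodes were matched to the count matrices of the 3 libraries. This gave 290 of 26008 kept cells, with 96 in control 1, 107 in control 2 and 87 in Angpt1ΔNC. The label was made by clustering on these genes, so levels in EC4 against other labels are given as a description, with no test.

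The study asked how loss of angiopoietin 1 from the neural crest changes the outflow region. Control mice carried Angpt1 flox/flox alleles and no Cre, and Angpt1ΔNC mice were Angpt1 flox/flox;Wnt1Cre+, in which a Wnt1 driver places Cre in the neural crest and its descendants. All mice were of mixed strain, had been crossed for 2 generations onto ICR to give albino animals, and were 6 weeks old. Each library pooled eyes of several mice of both sexes according to the labels, which leaves 2 control libraries against 1 Angpt1ΔNC library, and p-values measure only the spread between such pools.

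Blood endothelial cells line the vessels and hold one another through VE-cadherin, the product of Cdh5. Angiopoietin 1 is secreted by cells around the vessel and activates the endothelial receptor TEK, while the phosphatase PTPRB removes that signal. Endothelium of capillaries takes up fatty acids with the help of CD36, the carriers FABP4 and FABP5, and GPIHBP1, which holds lipoprotein lipase at the vessel wall. Like most cells, endothelium answers type I interferon by inducing a set of antiviral genes, many of which hold a short response element in their promoters.

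The EC4 cells held 690078 UMIs in control 1, 643515 in control 2 and 727340 in Angpt1ΔNC, where a UMI marks 1 captured transcript molecule, and their median depth was 4736, 3947 and 6539 UMIs. Between 13 and 25 barcodes of kept cells occurred in each pair of libraries, but 0 of them among the EC4 cells. No UMI of Angpt1, the targeted gene, was found in EC4 cells of any library, so it checks nothing here. A count of 0 allows up to 3 UMIs, or 0.0225 per 10,000 in the controls together and 0.0412 in Angpt1ΔNC. In the kept cells outside the endothelium, Angpt1 was at 0.391 and 0.408 UMIs per 10,000 in the controls and at 0.00402 in Angpt1ΔNC. The labels give both sexes for every library, but the counts differed. Xist, the RNA of the inactive X chromosome, was at 0 in EC4 cells of both controls and had 258 UMIs in those of Angpt1ΔNC, at least 158-fold higher against a floor of 3 UMIs over both controls.

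The markers given for the population were present. A level below is the mean over cells of a gene's UMIs per 10,000 UMIs of the cell, and values are given in the order control 1, control 2 and Angpt1ΔNC. Cdh5 was at 12.6, 13.2 and 16.0, with at least 1 UMI in 94.8, 96.3 and 98.9 percent of EC4 cells. Outside the endothelium, where the median depth was 6329, 6377 and 7446 UMIs, Cdh5 was found in 0.729, 0.905 and 0.503 percent of cells. Kdr, the main receptor for VEGF-A, was at 7.59, 7.88 and 8.52 in EC4, and Plvap, which forms the diaphragms of fenestrae and caveolae, at 24.4, 24.0 and 18.9. These markers were shared with other endothelial labels. Plvap was at 42.6 and 40.5 in EC3 cells of the controls, and Cdh5 was at 17.7 and 14.4 in EC2 cells. Kdr in the controls was lower in EC2, at 3.57 and 3.46, and in Schlemm's canal cells (SC), at 2.81 and 2.85, but not in EC3, at 7.76 and 9.44.

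Among the genes that stood highest in EC4 over the mean of SC, EC2 and EC3 in both controls were Rbp7, Fabp4, Sox17, Gpihbp1, Cyp1a1, Plscr2, Itm2a, Col13a1 and Rgcc, in that order. Rbp7, a retinol-binding protein of the same family as Fabp4, was at 1.18, 1.80 and 2.18 in EC4, and in the controls at most at 0.0232 in the other labels. Sox17, a transcription factor of arterial endothelium, was at 5.48, 4.04 and 6.01 in EC4 and at 1.33, 1.34 and 1.70 in EC2, the next label. Gpihbp1 was at 1.65, 1.77 and 1.08 in EC4 and at 0.314, 0.943 and 1.51 in EC3. Rbp7 and Sox17 thus set EC4 apart in every library, while Gpihbp1 did so in the controls and was higher in EC3 in Angpt1ΔNC. Itm2a, a membrane protein, was at 12.6, 9.01 and 10.1 in EC4 and at 4.60, 3.96 and 2.99 in EC3. Rgcc, a regulator of the cell cycle, was at 14.2, 12.0 and 13.6 in EC4 and at 9.58, 6.90 and 5.56 in EC3.

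**Figure D1:**
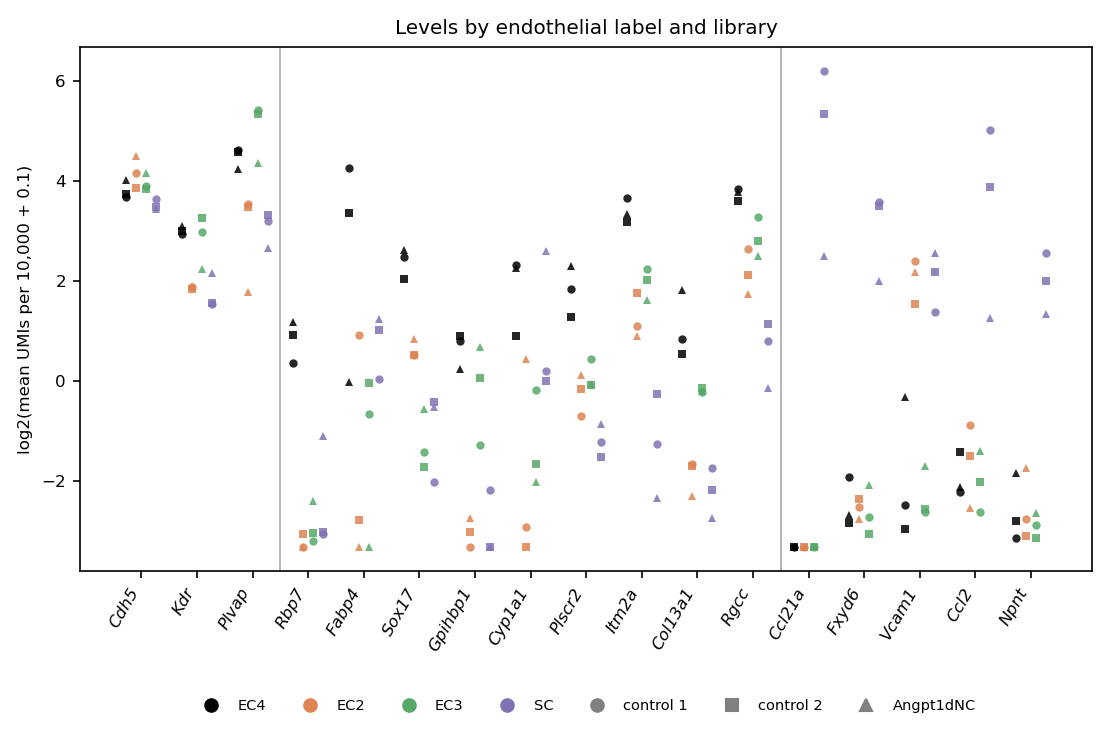
Mean UMIs per 10,000 of each gene (log2 after adding 0.1) in EC4, EC2, EC3 and SC cells (colors), with 1 point for each of the 3 libraries (shapes), for the 3 given markers, 9 of the 10 genes highest in EC4 in the controls and the 5 lowest. Rbp7 and Sox17 stand apart in EC4 in all 3 libraries, while Fabp4 does so in the controls and is at 0.890 in Angpt1ΔNC.

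Genes lowest in EC4 by the same ranking were Ccl21a, Fxyd6, Vcam1, Ccl2 and Npnt. Ccl21a, a chemokine of lymphatic endothelium, was at 0 in EC4 of all libraries and at a mean of 24.5 and 13.4 over SC, EC2 and EC3 in the controls, all of it from SC, where it was at 73.6 and 40.3. Prox1, the transcription factor that defines lymphatic and Schlemm's canal endothelium, was at 0.0180, 0.0625 and 0.0193 in EC4 and at 0.978, 0.871 and 0.350 in SC. Vwf, which is strong in veins, was at 0.240, 0.536 and 0.329 in EC4 and at 4.01, 1.99 and 4.17 in EC2. Lists of genes were read among the 2052 genes at 1 UMI per 10,000 or more in any label of both controls, of which 168 (8.19%) were highest in EC4 in both. None of 8 lymphatic and Schlemm's canal genes, 11 venous genes and 9 blood-brain or blood-retina barrier genes at this level was highest in EC4. In lists this short a count of 0 cannot be told apart from that share. Of the 3 lists 0, 1 and 3 genes were lowest in EC4, beside 155 of the 2052 genes (7.55%).

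The paper describes EC4 as arterial and EC2 as venous. In every library, however, the summed level of 28 arterial genes was lower in EC4 than in EC2 and EC3. The sum was 40.7, 50.5 and 42.1 in EC4, 107, 123 and 99.0 in EC2 and 47.9, 53.3 and 55.6 in EC3. Such a sum can rest on a few strong genes. Of 12 arterial genes at the level required for the lists above, 2 were highest in EC4, Sox17 and Efnb2, and 0 were lowest. Efnb2, the ephrin ligand of arteries, was at 1.63, 1.48 and 1.14 in EC4. Gja4, a gap junction protein of arterial endothelium, was instead at 0.0392, 0.557 and 0.439 in EC4 and at 2.67, 1.28 and 2.32 in EC2. Gja5, its companion in larger arteries, had 2, 0 and 10 UMIs in the EC4 cells, and Bmx, a kinase of arterial endothelium, had 1, 2 and 3. The arterial gap junction genes were thus scarce in EC4. Of 18 genes of capillaries and lipid handling, 8 were highest in EC4, namely Rgcc, Gpihbp1, Fabp4, Pltp, Cavin1, Ly6c1, Itm2a and Kitl. Of 18 genes of basement membrane and matrix, 7 were highest in EC4, among them Sparc, a collagen-binding matrix protein, at 36.7, 26.7 and 28.1. Of 29 heat shock and dissociation stress genes, 11 were highest in EC4, among them Hspa8, a constitutive chaperone, at 37.6, 24.8 and 16.5. These counts stand beside 8.19% of the 2052 genes, and are a description because the label was made by clustering on such genes.

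Transcripts of stromal cells, pericytes, smooth muscle and immune cells were scarce, while those of erythrocytes were not but lay in few cells. Summed levels of 12 stromal genes were 0.922, 1.64 and 7.92 in EC4, those of 12 pericyte and smooth muscle genes 3.60, 0.953 and 0.839, and those of 12 immune genes 1.82, 0.921 and 2.28. The summed level of 7 erythrocyte genes was 53.2, 6.06 and 36.2, and 5 cells in each library held 99.8%, 96.8% and 98.9% of it. Hemoglobin in EC4 was therefore in a few cells, and of the stromal level of Angpt1ΔNC 5 cells held 88.9%.

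Of the endothelial cells of control 1, 32.5% were EC4 (96 of 295, exact 95% binomial interval 27.2 to 38.2). EC4 was 32.7% of those of control 2 (107 of 327, 27.7 to 38.1) and 41.6% of those of Angpt1ΔNC (87 of 209, 34.9 to 48.6). The Angpt1ΔNC share was 8.99 percentage points above the mean of the controls, with overlapping intervals, and 1 library gives no test. Among cells typed as male by Y-linked UMIs, EC4 was 28.2% and 28.3% of endothelial cells in the controls and 66.7% in Angpt1ΔNC (44 of 66, 54.0 to 77.8), a difference of 38.4 points with intervals that do not overlap. Female-typed cells of Angpt1ΔNC, those with Xist and no Y-linked UMI, were 33 in EC4, 27 in EC2, 42 in EC3 and 12 in SC. EC4 was thus not the largest label among them, and its share of female-typed endothelial cells was not computed. With cells of any type, the shares among EC2, EC3 and EC4 alone were 39.0%, 40.7% and 47.8%. Intervals here and below cover counting error of cells only.

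The sex makeup of EC4 in Angpt1ΔNC differed from that of EC2 and EC3. A cell was typed as male with a UMI of a Y-linked gene and none of Xist, and as female with Xist and no Y-linked UMI. Of the EC4 cells of Angpt1ΔNC, 44 of 87 were typed as male (50.6%, exact 95% interval 39.6 to 61.5) and 33 of 87 as female (37.9%, 27.7 to 49.0). Male-typed cells were 10 of 58 in EC3 of that library (17.2%, 8.59 to 29.4) and 6 of 37 in EC2 (16.2%, 6.19 to 32). EC4 of Angpt1ΔNC thus held a larger share of male-typed cells than EC2 and EC3, with intervals that do not overlap. In the controls 62 of 96 and 73 of 107 EC4 cells were typed as male and 0 as female. This was not particular to EC4. Outside the endothelium 0 of 8781 and 1 of 9833 control cells were typed as female, against 3739 of 6563 (57.0%) in Angpt1ΔNC. Ddx3y, an RNA helicase on the Y chromosome, was at 1.34, 1.96 and 1.43 in EC4, and in Angpt1ΔNC at 0.431 in EC2 and 0.364 in EC3. Genotype and sex cannot be told apart in the pooled counts, so values from male-typed cells alone are given beside several results below.

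**Figure D2:**
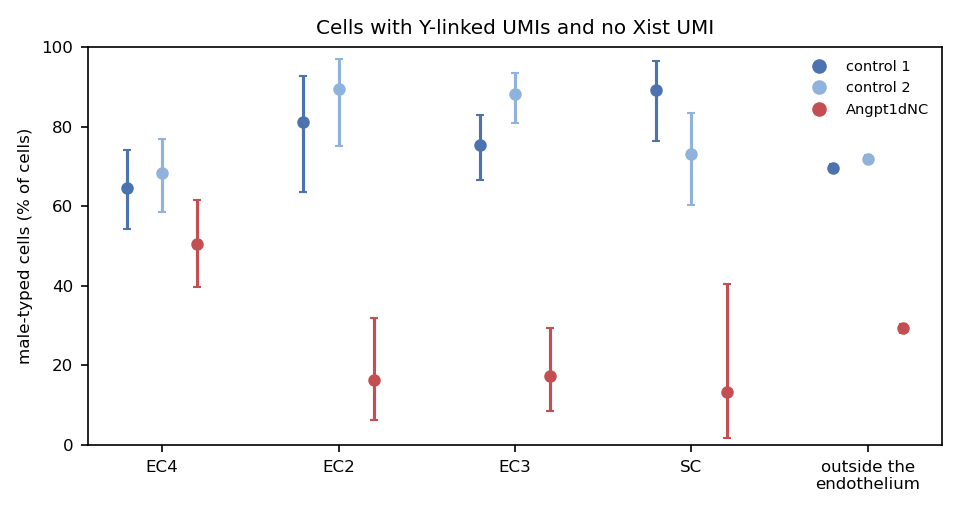
Share of male-typed cells (percent) in EC4, EC2, EC3, SC and all kept cells outside the endothelium, for each library, with exact 95% intervals. In Angpt1ΔNC, EC4 is at 50.6% and the other classes are between 13.3% and 29.3%.

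EC4 cells also differed among themselves. Fabp4 was found in 43 and 31 cells of the controls, 44.8 and 29.0 percent, against 1.98 and 1.52 percent of cells outside the endothelium. The cells with Fabp4 were deeper, with medians of 7673 and 6340 UMIs against 4105 and 3555 in the rest, and after thinning every cell to 2000 UMIs 37.6% and 21.3% of cells were positive. In control 1, Rbp7 was at 1.74 in cells with Fabp4 and at 0.724 in cells without, and Cd36 at 0.843 and 0. Control 2 had the same order, with Rbp7 at 5.50 and 0.288 and Cd36 at 1.79 and 0. Cd36 was thus found only in control cells that also had Fabp4. Sox17 did not follow this split, at 4.67 with and 6.13 without Fabp4 in control 1 and at 6.77 and 2.92 in control 2. Ihh, a hedgehog ligand known from choriocapillaris, was found in 7, 8 and 1 EC4 cells, at a level of 0.505, 0.321 and 0.0287, against 2.20, 1.78 and 0.251 in EC3.

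Between genotypes, 7663 genes with at least 15 UMIs over all EC4 cells were tested with edgeR on the counts summed per library. Of these 384 were higher in Angpt1ΔNC (5.01% of those tested) and 209 were lower (2.73%) at an adjusted p below 0.05, together 7.74%. A change is the log2 ratio of Angpt1ΔNC to the controls in this fit, and brackets give it with its standard error (SE) and adjusted p. Spread was estimated between the controls (1 residual degree of freedom), and the single Angpt1ΔNC library was taken to vary like them. The SE was computed from the change and the F statistic of the same fit. With equal cell numbers in each library, the adjusted p of Rsad2 and Fabp4 was larger by many orders of magnitude. Their changes hardly moved (2.42 and 2.33 for Rsad2, -3.34 and -3.35 for Fabp4), so the size of an adjusted p is uncertain. DESeq2 on the same sums called 54 higher and 19 lower, all among the calls of edgeR. The median change over all genes was -0.02, and 588 of the 593 called genes lay outside the range of both controls, as did 75.9% of all genes tested.

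Interferon response genes rose together. Of 37 tested, 24 rose and 0 fell, beside 5.01% and 2.73% of all genes tested. In the list 29 were at an unadjusted p under 0.05, and the median change was 0.98. DESeq2 called 10 of them, all higher. Rsad2, an antiviral enzyme, was at 3.46, 2.58 and 19.5 (2.42, SE 0.19, adjusted p = 4.91e-32) and was found in 50, 37 and 80 cells, or 52.1, 34.6 and 92.0 percent, against 10.1, 5.64 and 11.2 percent outside the endothelium. Ifit3, one of a family of proteins that bind foreign RNA, was at 1.34, 2.02 and 10.5 (2.64, SE 0.21, adjusted p = 4.91e-32). Ifit1 was at 3.66, 3.72 and 14.3 (2.02, SE 0.20, adjusted p = 1.49e-21) and Ifit2 at 0.534, 0.918 and 3.77 (2.44, SE 0.24, adjusted p = 1.64e-21). For each of these Angpt1ΔNC lay above both controls by far more than they differed from each other. Isg15, a ubiquitin-like protein, was already strong in the controls, at 22.7 and 18.9, and reached 46.6 (1.11, SE 0.17, adjusted p = 4.01e-09). Other members that rose were Oasl1, at 2.27, 2.49 and 6.28, Gbp3, at 1.57, 1.67 and 5.62, and Usp18, which removes ISG15 from proteins, at 0.737, 0.563 and 2.17. Among genes outside the list, Isg20, an interferon-induced exonuclease, was at 0.289, 0.368 and 1.84 (2.40, SE 0.27, adjusted p = 9.64e-16). The called changes of the list ran from 0.66 to 4.26. The chemokine gene Cxcl10, at 2.80, 5.53 and 4.88, did not pass the test.

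**Figure D3:**
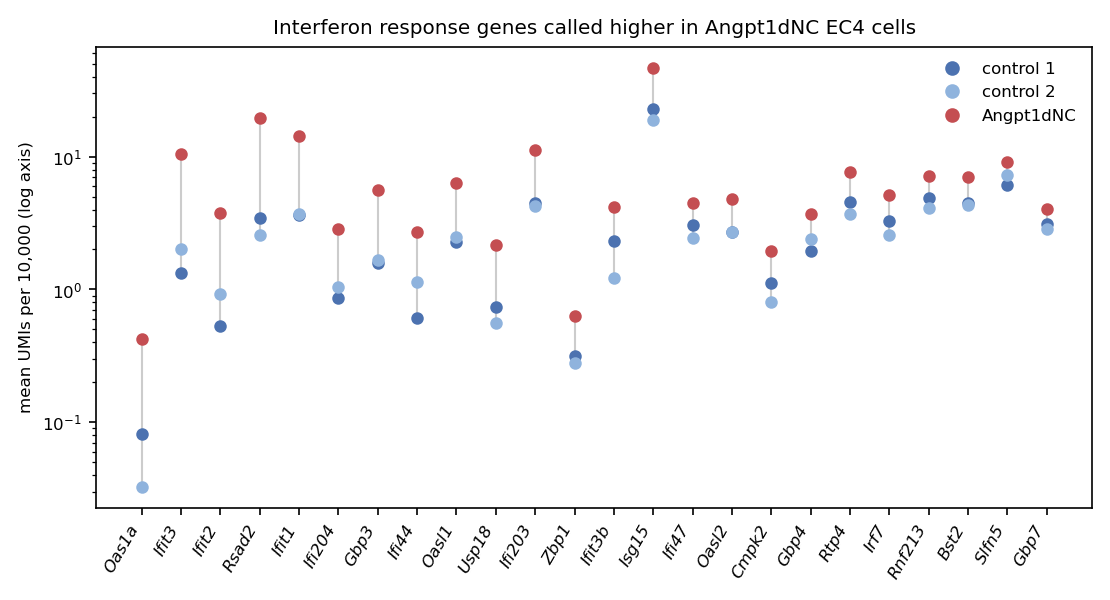
Level in EC4 (mean UMIs per 10,000, log axis) of the 24 interferon response genes called higher in Angpt1ΔNC, in each library. The Angpt1ΔNC point is the highest for each of these genes.

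The shift was seen across EC4 cells and in male- and female-typed cells of Angpt1ΔNC. Summed over the list, a cell had a median of 105 UMIs per 10,000 in control 1, 91.6 in control 2 and 228 in Angpt1ΔNC, with 10th percentiles of 44.1, 37.0 and 89.8. Within Angpt1ΔNC the median was 246 in the 44 male-typed and 231 in the 33 female-typed cells. Rsad2 was at 18.4 in the male-typed and 22.8 in the female-typed cells, and Ifit3 at 10.9 and 11.8. With male-typed cells alone in all libraries 24 genes of the list rose, and with female-typed Angpt1ΔNC cells against all control cells 21 rose. The controls held no female-typed EC4 cell, so sex differs along with genotype in the latter comparison.

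**Figure D4:**
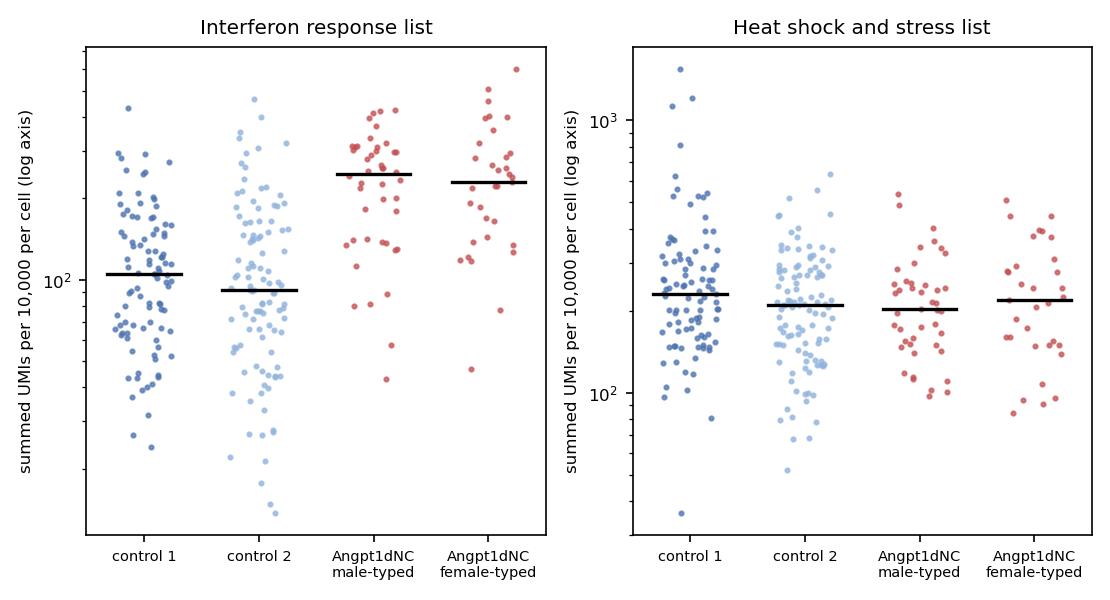
Summed UMIs per 10,000 (log axis) of the interferon response list and of the heat shock and dissociation stress list in single EC4 cells of control 1, control 2 and male- and female-typed Angpt1ΔNC cells, with bars at the medians. For interferon genes both Angpt1ΔNC medians (246 and 231) lie above those of the controls (105 and 91.6), and for heat shock genes the medians are 230, 209, 202 and 218.

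Promoters of 4 of these genes are printed because they hold the element bound by interferon-activated factors. The motif searched was GAAA, any 2 bases and GAAA again, on both strands, in windows from 250 bases before to 50 after the RefSeq start on GRCm38.p6. Of 27025 such windows, 943 (3.49%) hold it. Windows were matched for 19 of the 24 interferon genes that rose, and 10 of these hold it. Capitals mark the motif in either direction, overlapping matches included, and each window reads 5′ to 3′ on the strand of its gene. Rsad2 lies at chr12:26456403-26456702 on the minus strand, Ifit1 at chr19:34640639-34640938 and Ifit3 at chr19:34583279-34583578 on the plus strand, and Isg15 at chr4:156200769-156201068 on the minus strand.
Rsad2: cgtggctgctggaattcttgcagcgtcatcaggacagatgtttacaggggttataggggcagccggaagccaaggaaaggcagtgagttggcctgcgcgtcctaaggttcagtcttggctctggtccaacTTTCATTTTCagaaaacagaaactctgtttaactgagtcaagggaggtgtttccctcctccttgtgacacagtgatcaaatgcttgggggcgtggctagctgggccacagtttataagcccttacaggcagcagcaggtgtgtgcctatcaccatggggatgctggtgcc
Ifit1: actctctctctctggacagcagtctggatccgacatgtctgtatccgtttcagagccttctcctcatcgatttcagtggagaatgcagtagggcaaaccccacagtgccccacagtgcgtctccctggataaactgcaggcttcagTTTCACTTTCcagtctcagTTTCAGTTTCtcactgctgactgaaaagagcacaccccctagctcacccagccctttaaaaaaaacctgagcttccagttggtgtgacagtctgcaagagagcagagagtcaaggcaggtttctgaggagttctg
Ifit3: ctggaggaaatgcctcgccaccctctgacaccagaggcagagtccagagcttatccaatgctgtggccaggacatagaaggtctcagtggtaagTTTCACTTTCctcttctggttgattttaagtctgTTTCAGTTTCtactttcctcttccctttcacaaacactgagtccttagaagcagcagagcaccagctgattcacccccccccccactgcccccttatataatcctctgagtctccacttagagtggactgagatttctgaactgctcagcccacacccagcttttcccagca
Isg15: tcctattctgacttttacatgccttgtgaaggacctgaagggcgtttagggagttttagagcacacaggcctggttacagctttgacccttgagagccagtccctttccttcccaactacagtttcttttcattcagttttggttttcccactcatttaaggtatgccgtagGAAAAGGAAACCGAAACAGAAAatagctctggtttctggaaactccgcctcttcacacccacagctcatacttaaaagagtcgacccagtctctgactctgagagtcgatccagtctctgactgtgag
A match is a description of these letters and not a measured site of binding.

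Antigen presentation genes rose as well. Of 18 tested, 11 rose and 0 fell (12 at an unadjusted p under 0.05), beside 5.01% and 2.73% of all genes tested. The median change of the list was 0.98, and DESeq2 called 3. B2m, the light chain of MHC class I, was at 12.7, 15.7 and 22.1 (0.82, SE 0.18, adjusted p = 0.000308). The class I gene H2-T22 was at 0.398, 0.407 and 2.17 (2.15, SE 0.26, adjusted p = 6.58e-14), and Tap1, which carries peptides into the endoplasmic reticulum, at 2.25, 1.61 and 3.45 (1.02, SE 0.23, adjusted p = 0.000397). Class I genes are alike in sequence and vary between strains, so the split of reads among them is uncertain.

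A family of interferon-inducible genes on chromosome 1 moved in both directions. Ifi203 was at 4.50, 4.28 and 11.3 and Ifi211 at 0.286, 0.348 and 2.42, and both rose (1.40 and 2.95, SE 0.20 and 0.27, adjusted p = 8.98e-10 and 4.24e-24). Ifi202b, at 173962568 to 173982744 of chromosome 1 on GRCm38, was at 1.69, 1.20 and 0.0502, with 118, 81 and 4 UMIs (-4.55, SE 0.48, adjusted p = 2.02e-18). Outside the endothelium Ifi202b was at 5.64, 7.43 and 9.96, and in EC3 at 0.967, 1.14 and 0.0638, so it was low in Angpt1ΔNC in EC4 and EC3 and not over the other cells together. Gbp2b, a guanylate-binding protein gene on chromosome 3, was at 0.0193, 0.0547 and 2.48 (5.94, SE 0.39, adjusted p = 5.25e-49). These genes have close copies, and their reads can be split uncertainly.

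Some genes were nearly without UMIs in Angpt1ΔNC in EC4 and elsewhere. The predicted gene Gm10260 had 297, 375 and 0 UMIs in EC4, at least 122-fold lower against a floor of 3 UMIs, and outside the endothelium it was at 5.32, 6.46 and 0.0221. BC023719, on chromosome 17, had 37, 36 and 0 UMIs, at least 13.3-fold lower, and outside the endothelium it was at 0.460, 0.459 and 0.00418. In the other direction Tpm3-rs7, a tropomyosin-related gene, was at 3.86, 2.15 and 13.2 in EC4 and at 1.23, 0.781 and 2.77 outside the endothelium (2.24, SE 0.21, adjusted p = 7.85e-25, DESeq2 adjusted p = 0.160). Eml1, a microtubule-associated protein gene, was at 0.645, 0.748 and 3.04 (2.25, SE 0.25, adjusted p = 9.48e-17).

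Fatty acid carriers fell. Of 22 genes of capillaries and lipid handling tested, 5 fell and 2 rose, with a median change of 0.08. Over all genes tested 2.73% fell and 5.01% rose. Fabp4 was at 19.0, 10.1 and 0.890 (-3.34, SE 0.25, adjusted p = 3.61e-37), and 5 of the 87 cells of Angpt1ΔNC held its 99 UMIs. After thinning to 2000 UMIs, Fabp4 was found in 37.6%, 21.3% and 2.47% of the 85, 94 and 81 cells deep enough, with 11, 13 and 6 left out. Angpt1ΔNC thus lay far below controls that themselves differed. Fabp5 was at 1.39, 0.656 and 0.162 (-2.75, SE 0.40, adjusted p = 1.45e-09). Cd36 had 26, 41 and 5 UMIs (-2.68, SE 0.55, adjusted p = 5.25e-05), a call that DESeq2 did not make (adjusted p = 0.446). Rbp7, which shared cells with Fabp4 in the controls, was at 1.18, 1.80 and 2.18 and rose (0.86, SE 0.24, adjusted p = 0.00738), although not by DESeq2 (adjusted p = 0.998) or within male-typed cells (adjusted p = 0.217). Gpihbp1 did not pass the test (-0.63, SE 0.27, adjusted p = 0.148). Within male-typed cells Fabp4 still fell (-2.77, adjusted p = 5.61e-23). The members that rose were Ly6a, at 6.73, 7.43 and 16.6, and Ly6c1, at 5.02, 4.63 and 7.61, surface proteins of the Ly6 family.

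Inducible heat shock genes fell. Hspa1a was at 13.0, 5.57 and 0.636 (-3.95, SE 0.31, adjusted p = 9.45e-35), and Hspa1b at 2.53, 2.62 and 0.236 (-3.65, SE 0.37, adjusted p = 5.08e-20). UMIs of Hspa1a were found in 33, 26 and 13 cells, and 5 cells held 69.5, 79.2 and 72.4 percent of them, so its control levels rested on few cells. These neighbours on chromosome 17 encode almost the same HSP70 chaperone, so the split of reads between them is uncertain. Their RefSeq promoter windows on GRCm38.p6, at chr17:34972107-34972406 and chr17:34959189-34959488 on the minus strand, are printed as a description. These windows differ at 4 of 300 positions (98.7% identical), which are in capitals. They do not bear on the split of reads, and the transcript sequences were not compared.
Hspa1a: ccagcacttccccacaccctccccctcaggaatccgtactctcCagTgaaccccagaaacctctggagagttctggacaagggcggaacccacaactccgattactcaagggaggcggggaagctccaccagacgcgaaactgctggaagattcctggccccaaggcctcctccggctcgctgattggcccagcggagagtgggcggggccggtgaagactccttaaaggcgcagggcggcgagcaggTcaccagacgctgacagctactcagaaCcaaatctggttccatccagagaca
Hspa1b: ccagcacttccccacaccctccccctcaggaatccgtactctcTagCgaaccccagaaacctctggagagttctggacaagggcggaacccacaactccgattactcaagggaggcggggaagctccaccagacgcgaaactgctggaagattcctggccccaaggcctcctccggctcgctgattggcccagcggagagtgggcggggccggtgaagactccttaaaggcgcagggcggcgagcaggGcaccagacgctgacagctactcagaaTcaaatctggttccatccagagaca
Hspa8 was at 37.6, 24.8 and 16.5 (-0.74, SE 0.19, adjusted p = 0.00217), and Hsph1, a partner of HSP70, at 0.806, 0.851 and 0.116 (-2.17, SE 0.41, adjusted p = 8.43e-06), and DESeq2 called neither (adjusted p = 0.425 and 0.259). The heat shock and dissociation stress list as a whole was not one-sided. Of its 31 genes tested, 6 fell and 4 rose, beside 2.73% and 5.01% of all genes tested. Among those that rose was Ier3, an immediate early gene, at 30.3, 25.6 and 44.0. Per cell, the summed list had medians of 230, 209 and 204.

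Klf2, a transcription factor that laminar flow induces in endothelium, was at 16.4, 8.37 and 3.14 (-1.63, SE 0.22, adjusted p = 5.03e-11), and its relative Klf4 was at 4.69, 3.33 and 3.97 and did not pass the test. The change of Klf2 was -1.95 without control 2 and -1.21 without control 1, and DESeq2 did not call it (adjusted p = 0.425). Nupr1, a stress-induced nuclear protein, was at 12.1, 8.57 and 1.01 (-3.70, SE 0.26, adjusted p = 1.41e-41), and at 5.32, 4.56 and 5.99 outside the endothelium. Igfbp5, a binding protein of insulin-like growth factors, was at 2.03, 1.98 and 0.0386 (-5.37, SE 0.49, adjusted p = 7.09e-25). Klf2, Nupr1 and Igfbp5 were each lower in Angpt1ΔNC than in both controls, and Nupr1 and Igfbp5 were called by DESeq2 as well.

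Genes by which endothelium holds and attracts leukocytes moved in both directions. Of 14 tested, 6 rose and 2 fell, beside 5.01% and 2.73% of all genes tested. DESeq2 called 1 higher, Vcam1, and 1 lower, Icam1. Icam1, a receptor for leukocyte integrins, was at 4.33, 4.37 and 1.03 (-1.58, SE 0.26, adjusted p = 1.92e-07). Vcam1, its counterpart for lymphocytes and monocytes, had 5, 6 and 57 UMIs in 4, 3 and 6 cells (3.39, SE 0.43, adjusted p = 1.57e-12), so its rise rested on few cells. Outside the list, Csf3, the granulocyte growth factor, was at 1.29, 1.20 and 9.06 in 9, 14 and 35 cells (2.45, SE 0.22, adjusted p = 6.95e-25), and 5 cells held 69.8% of its UMIs in Angpt1ΔNC. Edn1, the vasoconstrictor endothelin 1, was at 1.40, 1.91 and 4.11 (1.61, SE 0.24, adjusted p = 1.38e-09), and with female-typed Angpt1ΔNC cells alone it did not pass (0.59, adjusted p = 0.342).

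The receptors of the deleted ligand did not pass the test in EC4. Of 14 angiopoietin-TIE genes tested, 3 rose and 0 fell (5 at an unadjusted p under 0.05), with a median change of -0.16. Over all genes tested 5.01% rose and 2.73% fell. Tek was at 0.877, 1.33 and 0.481 (-0.60, SE 0.30, adjusted p = 0.271), and Tie1, its partner, at 1.84, 2.58 and 1.78 (0.01, SE 0.25, adjusted p = 0.989). Ptprb was at 3.80, 4.69 and 2.28 (-0.40, SE 0.23, adjusted p = 0.375). The levels of Tek and Ptprb were below both controls, but neither change passed the test. Angpt2, the ligand that endothelium itself makes, was at 1.04, 1.27 and 1.70 (0.98, SE 0.25, adjusted p = 0.00333). Foxo1, a transcription factor that TEK signaling restrains, was at 1.77, 2.30 and 2.57 (0.72, SE 0.24, adjusted p = 0.0398), and Pdgfb, which recruits pericytes, at 0.684, 0.841 and 1.30 (1.22, SE 0.28, adjusted p = 0.000571). DESeq2 called none of these 3, with adjusted p of 0.998, 0.998 and 0.905.

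Among matrix genes, 6 of 22 rose, beside 5.01% of all genes tested, and DESeq2 called 1. Col13a1, a transmembrane collagen that marked EC4, was at 1.70, 1.35 and 3.42 (1.59, SE 0.23, adjusted p = 9.47e-10). Igfbp7, a matrix protein of vessels, was at 48.2, 43.7 and 73.9 (0.79, SE 0.15, adjusted p = 9.46e-06), and the collagen IV chains Col4a1 and Col4a2 changed by 0.64 and 0.71 (SE 0.20 and 0.21). DESeq2 called none of Igfbp7, Col4a1 and Col4a2 (adjusted p = 0.0772, 0.964 and 0.812), and within male-typed cells Col4a1 did not pass (0.53, adjusted p = 0.123). Both aryl hydrocarbon receptor targets that marked EC4 were called higher, and DESeq2 called 0 of the 7 genes of that list. Tiparp was at 10.2, 7.97 and 16.3 (0.89, SE 0.19, adjusted p = 0.000108, DESeq2 adjusted p = 0.0706). Cyp1a1 was called on the sums (1.41, SE 0.22, adjusted p = 1.26e-08), but its mean level per cell in Angpt1ΔNC lay between the controls, at 4.92, 1.76 and 4.69, and DESeq2 did not call it (adjusted p = 0.998).

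Of 18 BMP and TGF-beta genes 4 rose, and of 14 Notch genes 1 rose, beside 5.01% of all genes tested. The Notch count lies near that share, and DESeq2 called 0 in both lists. Of 10 VEGF genes edgeR and DESeq2 called 0, with 5 at an unadjusted p under 0.05 in edgeR. Of 25 pan-endothelial genes 5 rose and 2 fell, beside 5.01% and 2.73% of all genes tested, and DESeq2 called 1 higher. Egfl7, a secreted endothelial protein, was at 15.7, 16.7 and 27.7 (0.94, SE 0.18, adjusted p = 8.43e-06), and Emcn, a sialomucin of veins and capillaries, at 15.9, 15 and 7.99 (-0.67, SE 0.20, adjusted p = 0.0173). Neither DESeq2 (adjusted p = 0.636) nor the fit within male-typed cells (-0.60, adjusted p = 0.0756) called Emcn.

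Some hemoglobin and stromal genes were also called, on transcripts held mostly by few cells. The mean level of Hbb-bs in Angpt1ΔNC lay between those of the controls, and DESeq2 did not call this gene. Hbb-bs was at 35.1, 4.15 and 24.2 in 8, 12 and 21 cells and was called higher on the sums (1.36, SE 0.16, adjusted p = 6.05e-14), and Col1a1, a fibroblast collagen, was at 0.116, 0.238 and 3.37 (2.81, SE 0.35, adjusted p = 2.87e-13). Without the 7 cells in which hemoglobin, stromal or immune genes made up over 1% of UMIs, which left 95, 106 and 82 cells, Hbb-bs changed by 0.86 (adjusted p = 0.325) and Col1a1 by 0.17 (adjusted p = 0.926). Then 23 interferon genes still rose, and Fabp4 changed by -3.67 (adjusted p = 4.27e-41).

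The genotype differences of EC4 were compared with those of EC2 and EC3 together as an interaction in an edgeR fit. Of 7663 genes, 43 had a higher change in EC4 (0.561%) and 39 a lower one (0.509%), together 1.07%. Of the interferon list 2 were among them, Rsad2, which changed by 2.42 in EC4 and 1.18 in EC2 and EC3 (difference 1.22, SE 0.20, adjusted p = 0.00247), and Oasl1, by 1.48 and 0.20 (1.27, SE 0.23, adjusted p = 0.00654). For Ifit3 the changes were 2.64 and 2.60 (difference 0.03, SE 0.22, adjusted p = 0.981). Plvap changed by -0.08 in EC4 and -1.19 in EC2 and EC3 (1.10, SE 0.15, adjusted p = 0.000492), and Kdr by 0.41 and -0.57 (0.97, SE 0.19, adjusted p = 0.00945). The level of Plvap went from 42.6 and 40.5 in the controls to 20.4 in EC3 and from 11.5 and 11 to 3.36 in EC2, and that of Kdr from 7.76 and 9.44 to 4.62 in EC3 and from 3.57 and 3.46 to 3.65 in EC2. Icam1 moved in opposite directions, by -1.58 in EC4 and 0.85 in EC2 and EC3 (adjusted p = 6.13e-06 for the latter, difference -2.45, SE 0.24, adjusted p = 6.18e-06), with levels in EC3 of 7.54, 6.43 and 8.47 and in EC2 of 9.54, 6.78 and 12.8. Nupr1 changed by -3.70 and -0.52 (-3.17, SE 0.24, adjusted p = 7.16e-08), Klf2 by -1.63 and -0.29 (-1.32, SE 0.21, adjusted p = 0.00268) and Col13a1 by 1.59 and -0.23 (1.80, SE 0.30, adjusted p = 0.00285). Ddx3y differed too, by -0.06 and -2.03 (1.95, SE 0.32, adjusted p = 0.00328), as the male-typed shares do, and the part of sex in the other differences was not tested. EC2 gave 15.9%, 20.7% and 38.9% of the UMIs summed over EC2 and EC3, so the mix of these labels also differed with genotype. With EC3 alone as the comparison 7 genes passed (0.0913%), namely Nupr1 (-2.99, SE 0.29, adjusted p = 0.0108), Icam1 (-2.21, SE 0.25, adjusted p = 0.0246), Tm4sf1 and 4 hemoglobin genes, and all 37 named genes that differed from EC2 and EC3 kept their sign. Plvap (0.76, SE 0.12, adjusted p = 0.130) and Kdr (1.03, SE 0.17, adjusted p = 0.130) did not pass.

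**Figure D5:**
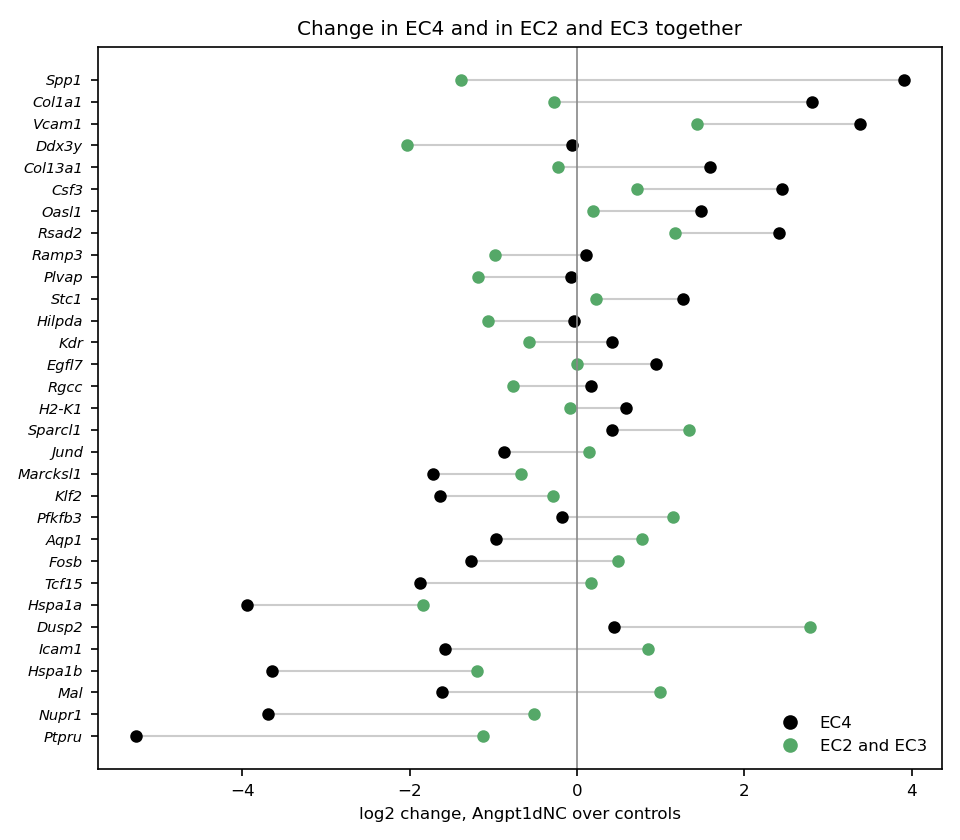
Log2 change of Angpt1ΔNC over the controls in EC4 (black) and in EC2 and EC3 together (green) for the 31 named genes whose changes differed between them. Erythrocyte genes and Plac8 are left out because few cells hold them. Plvap and Kdr lie lower in EC2 and EC3 (changes of -1.19 and -0.57), and Nupr1, Klf2 and Icam1 lie lower in EC4 (-3.70, -1.63 and -1.58).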

How the data were processed

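Cells of the iridocorneal angle and limbus of 2 control pools and 1 Angpt1ΔNC pool were captured in droplets. The authors aligned reads to mm10 with Cell Ranger (2.1.1 in the processing notes), filtered cells, removed doublets with scDblFinder, integrated the libraries and clustered them with Seurat (3.1.3). The deposited matrices hold raw UMI counts, and the deposited tables hold each kept cell's label together with integrated gene values on a natural log scale, which were not used. UMI counts of EC4 cells were summed per library and tested with edgeR 4.0.16 (TMM, quasi-likelihood, at least 15 UMIs, Benjamini-Hochberg adjustment) in R 4.3.3, with DESeq2 1.42.0, RLE size factors, other filters and other sets of cells as alternatives. Cells were typed by sex from Xist against Ddx3y, Eif2s3y, Kdm5d and Uty. Shares carry exact Clopper-Pearson 95% intervals (SciPy 1.17.1). The fit was tested on simulated data with 200 changed genes, and 94.5% of them were recovered for the genotype difference over 7409 genes, with 3.57% of calls false. For the interaction over 7663 genes 86.5% were recovered with 6.49% false, above the threshold of 5%. In both simulations the changed genes had large changes and far more UMIs than the filter asks, and all genes shared a common dispersion. These rates were not measured for smaller changes or for genes near the filter. The genotype simulation gave all 3 libraries the same proportions apart from the changed genes, with no difference between pools added. Its rate of false calls therefore does not cover differences between pools. Depth was 1128 to 27828 UMIs per EC4 cell. GENCODE M21 held 31011 of 31053 gene IDs. Named are the given markers, the 10 highest and 5 lowest genes in EC4, up to 15 genes that rose and 15 that fell with the smallest adjusted p, called or highest members of 29 gene lists, sex-linked genes, genes the study names and up to 10 of the interaction. The members and lists were chosen with earlier results of these data known. Some genes that this rule names are not reported here.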

Additional observations from a re-analysis of the deposited data

Results flagged for a closer look

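For 37 named genes the genotype change in EC4 differed from that in EC2 and EC3 by the interaction test of edgeR, and the values below are the change in EC4 minus the change in EC2 and EC3 on the log2 scale. It was higher in EC4 for Hbb-bs (8.86), Hba-a1 (9.90), Hbb-bt (11.49), Hba-a2 (8.88), Plvap (1.10), Alas2 (10.30), Spp1 (5.30), Rsad2 (1.22), Plac8 (13.89), Egfl7 (0.92), Col13a1 (1.80), Ddx3y (1.95), Oasl1 (1.27), Stc1 (1.01), Kdr (0.97), Col1a1 (3.05), Rgcc (0.90), Hilpda (1.01), Csf3 (1.71), Ramp3 (1.10), H2-K1 (0.66) and Vcam1 (1.99). It was lower in EC4 for Nupr1 (-3.17), Icam1 (-2.45), Mal (-2.62), Dusp2 (-2.35), Jund (-1.04), Klf2 (-1.32), Aqp1 (-1.72), Hspa1b (-2.47), Marcksl1 (-1.05), Pfkfb3 (-1.33), Fosb (-1.78), Ptpru (-4.21), Hspa1a (-2.10), Tcf15 (-2.04) and Sparcl1 (-0.94). Hemoglobin genes, Alas2 and Plac8 have groups with few or 0 UMIs, so their values depend on the prior count of the fit and are no bound, and Plac8 was found in 1 EC4 cell of Angpt1ΔNC. The male-typed share differs between these labels in Angpt1ΔNC (50.6% in EC4, 16.2% in EC2 and 17.2% in EC3), as does the EC2 part of the UMIs of EC2 and EC3 between genotypes (15.9%, 20.7% and 38.9%), and the part of either in these differences was not tested.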

How the results depend on the processing

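For the genotype difference in EC4, the count of genes called (593 with edgeR) was 73 with DESeq2, 222 with at least 30 UMIs, 212 with equal cell numbers and 232 with female-typed Angpt1ΔNC cells, the last chosen after seeing the data. The last 3 use fewer genes or cells, but the cause of these lower counts was not tested. With at least 30 UMIs and with equal cell numbers the adjusted p of Vcam1 was larger by orders of magnitude. Its change was 3.39 as reported, 3.36 with at least 30 UMIs and 3.20 with equal cell numbers. It was 430 with RLE size factors, 504 without the filter, 560 in male-typed cells, 404 in cells with at least 2000 UMIs and, chosen after seeing the data, 525 without cells with other RNA. The interaction count of 82 was 7 with EC3 alone and 46 with RLE size factors. The difference in the EC4 share of endothelial cells, 8.99 points, was 0.229 points of all kept cells and 38.4 points among male-typed cells, and 8.91 to 9.08 without a control. Of the 10 genes highest in EC4, 9 stayed at a log2 fold of 1 or more after thinning and all 10 without either control. Of 136 named genes, 90 lost their call with DESeq2, 56 with equal cell numbers, 54 with female-typed cells and 17 with male-typed cells. The direction turned for Mgp in EC4 without control 2 (0.48, against -1.87 without control 1), for Col1a2 without cells with other RNA (-0.35), and for Hbb-bs (-4.07) and Hbb-bt (-4.05) with female-typed cells. No paired analysis was possible because the labels link neither control library to the Angpt1ΔNC library. With 1 Angpt1ΔNC library, genotype, sex and library cannot be told apart, and low genes rest on few UMIs.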

Other observations

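Several windows of 5 Mb on GRCm38 held gene families of which many members were called between genotypes in EC4. The windows were chosen after their values were seen, from those with at least 6 called genes, so their high shares follow from the choice and were not tested. Beside 7.74% over all tested genes, 6 of 12 were called on chromosome 3 from 140 to 145 Mb, all higher, 4 of them the guanylate-binding protein genes Gbp5, Gbp7, Gbp3 and Gbp2b. On chromosome 1 from 170 to 175 Mb, 11 of 35 (31.4%) were called, 10 higher, among them Ifi203, Ifi204, Ifi211 and Mndal, and 1 lower, Ifi202b. On chromosome 7 from 100 to 105 Mb, 9 of 35 (25.7%) were called, all higher, among them the tripartite motif genes Trim12a, Trim12c, Trim30a and Trim30d as well as hemoglobin genes. On chromosome 17, 9 of 39 (23.1%) were called from 35 to 40 Mb, with MHC class I genes higher and BC023719 lower. These windows hold gene families with close copies, among which the split of reads is uncertain.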
